A study of Mus musculus with 6 samples.

Results

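The genes described here are 10 mouse inhibitors of proteases: Slpi, Wfdc1 and Wfdc2, which carry the whey acidic protein (WAP) domain, the cystatin Cst3, the serpins Serpini1, Serpinb6a and Serpine2, and the tissue inhibitors of metalloproteases Timp1, Timp2 and Timp3. Their probes were found by gene symbol in the platform annotation. The genes were chosen from families of inhibitors after the responses of Slpi and Wfdc1 to doxycycline in these same arrays were known, so the difference between the media is given for them as a description, and the number of them past the threshold supports nothing. Of 45281 probes on the array, 17 belonged to 9 of the 10 genes, and no probe used here carried the symbol Serpine2. A probe was tested when it was above background (detection p under 0.01) on at least 3 of the 6 arrays, which held for 8 of the 17 probes, 1 for each of 8 genes, and for 16902 probes of 9196 genes in all (19057 genes were on the array).

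The arrays measured total RNA from the AtT-20 line, which came from a pituitary tumour of a mouse and keeps features of corticotropes, the cells that make ACTH from the precursor Pomc. All clones carried stably transfected rat PAM-1 under doxycycline control, a granule enzyme that amidates peptides. Clones 14, 6_1 and 6_2 were kept for 48 h in control medium or with doxycycline, 1 culture and 1 array per clone and medium, so each group held 3 arrays. The labels give 4 µg/ml of doxycycline in the protocol and 4 mg/ml in the descriptions, and do not say whether clones 6_1 and 6_2 arose separately. Cells without the transgene were not analysed here, so the drug and induced PAM-1 cannot be told apart. Precision is limited by the few arrays.

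Between 16196 and 17149 probes per array were above background, fewer on each doxycycline array than on the control array of its clone. On the first principal component the array of clone 6_1 in control medium lay far out, at 56.5, against -33.7 to 18.7 for the other arrays. Of the corticotrope markers looked for, Pomc, Tbx19, Neurod1 and Crhr1 were above background on 6 of 6 arrays, while Pitx1, Avpr1b and Nr4a1 were not on any. Pcsk1 was above background on some arrays only. On the linear normalised scale the sum of this list ran from 68782.1 to 72729.9 in control medium and from 72601.6 to 75426.5 with doxycycline. These groups overlapped narrowly. Slpi is also made by leukocytes and epithelia. Of 8 leukocyte markers 0 were above background on 6 arrays and only Elane was on any, whereas Ptprc, Lyz2, Csf1r and Tyrobp were not on any array. Of 6 fibroblast markers 0 were detected. The epithelial keratins Krt8, Krt18 and Krt14 were above background on 6 arrays, and Epcam, Cdh1 and Krt5 were not on any. The summed level of the epithelial list ran from 11350 to 13057 in control medium and from 12010 to 12251 with doxycycline on the linear normalised scale, so that its groups overlapped. So did the sums of the leukocyte list (501 to 547 against 491 to 524), the fibroblast list (344 to 368 against 350 to 378) and the list for other pituitary cells (684 to 898 against 751 to 851), of which Gata2 was above background on 6 arrays. Each sum takes in every probe of its list, also those not above background. The fibroblast sum is therefore background signal, as is the leukocyte sum apart from Elane, and their overlap says little about cell content. The sum of the 4 endothelial markers did not overlap, at 305 to 343 in control medium and 345 to 381 with doxycycline. Of these markers, Kdr was above background on 6 arrays and Cdh5, Pecam1 and Tek were on none. The gap was narrow, from 343 to 345, and the groups of 24.5% of all tested probes did not overlap either. The part of the endothelial list in the results was not tested.

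Secreted inhibitors limit the proteases that meet them outside the cell or in the secretory route. WAP proteins such as Slpi block serine proteases of the elastase type, cystatins block cysteine cathepsins, serpins trap serine proteases by a one-way change of shape, and TIMPs bind the active site of matrix metalloproteases and related enzymes. AtT-20 cells sort peptide precursors and their processing proteases into granules, and inhibitors with a signal peptide enter the same secretory pathway.

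Promoter windows from RefSeq (GRCm38.p6) run from 250 bases before to 50 after the start of a gene. Of the 10 genes 9 had an entry, and Wfdc1 had none, so its promoter was not searched. The windows of Slpi, on the minus strand at chr2:164356458-164356757, and Wfdc2, on the plus strand at chr2:164562465-164562764, are shown 5′ to 3′ because these neighbours carry the same domain and both read higher with doxycycline. For Wfdc2 an entry shifted by 1 base was also listed. Capitals mark matches to 7 motifs searched on both strands.

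Slpi: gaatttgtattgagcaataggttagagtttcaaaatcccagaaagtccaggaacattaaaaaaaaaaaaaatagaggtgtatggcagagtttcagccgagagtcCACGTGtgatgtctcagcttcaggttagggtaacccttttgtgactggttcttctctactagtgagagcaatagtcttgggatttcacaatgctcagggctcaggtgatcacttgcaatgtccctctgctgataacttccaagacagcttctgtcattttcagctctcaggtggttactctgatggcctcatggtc

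Wfdc2: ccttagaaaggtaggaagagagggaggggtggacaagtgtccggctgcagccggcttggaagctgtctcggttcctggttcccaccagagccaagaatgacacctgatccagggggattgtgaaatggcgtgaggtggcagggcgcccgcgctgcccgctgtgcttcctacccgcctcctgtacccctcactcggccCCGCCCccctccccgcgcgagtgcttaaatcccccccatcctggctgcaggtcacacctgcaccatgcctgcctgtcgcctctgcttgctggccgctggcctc

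The Slpi window held an E-box (CACGTG) whose first base is at position -146 from the gene start, a motif found in 7.24% of 27025 promoter windows, 1 per gene. The Wfdc2 window held a GC box (GGGCGG, on the opposite strand) whose first base is at position -53, found in 35.9% of windows. The other motifs were in neither window shown. These were the TATA box TATAAA, which 14.2% of windows held, the CCAAT box itself, in 37.9%, the cyclic AMP element TGACGTCA, in 1.88%, the AP-1 site TGANTCA, in 7.93%, and an NF-kB site, in 1.62%. No match says only that these letters are absent from the window. The GC content was 43.3% for Slpi and 65.3% for Wfdc2, against a median of 52.7% over all windows. Among the other members, the windows of Cst3, Serpine2, Timp1, Timp2 and Timp3 each held a GC box, as did 1 of the 2 windows of Serpinb6a. A CCAAT box lay in the windows of Serpini1, Timp1 and Timp2 and in the other window of Serpinb6a.

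Slpi, the secretory leukocyte protease inhibitor, had the largest difference of the 8 tested genes. Its probe (ILMN_1256817) gave scanner intensities of 1979, 484 and 522 on the control arrays of clones 14, 6_1 and 6_2, and of 9215, 5297 and 5629 on their doxycycline arrays. The groups did not overlap, and each clone was higher with the drug. On the normalised log2 scale, used from here on, the control values were 10.64, 8.57 and 8.91 and the doxycycline values 12.99, 12.42 and 12.44. The clones lay 2.07 apart from lowest to highest in control medium and 0.58 apart with doxycycline. The ratio of the media was thus smallest in clone 14 (5.11-fold), while clone 6_1 reached 14.4-fold and clone 6_2 reached 11.6-fold. The mean difference was 3.24 (moderated SE 0.27, n = 3 clones). Here and below the SE is that of limma, which borrows variance from all tested probes. It is not the spread of the 3 clone differences alone. As 1 culture stands for each clone and medium, whether the responses of the clones differ could not be tested. In bulk RNA, more cells that express a gene and more RNA per cell cannot be told apart, here and below.

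**Figure D1:**
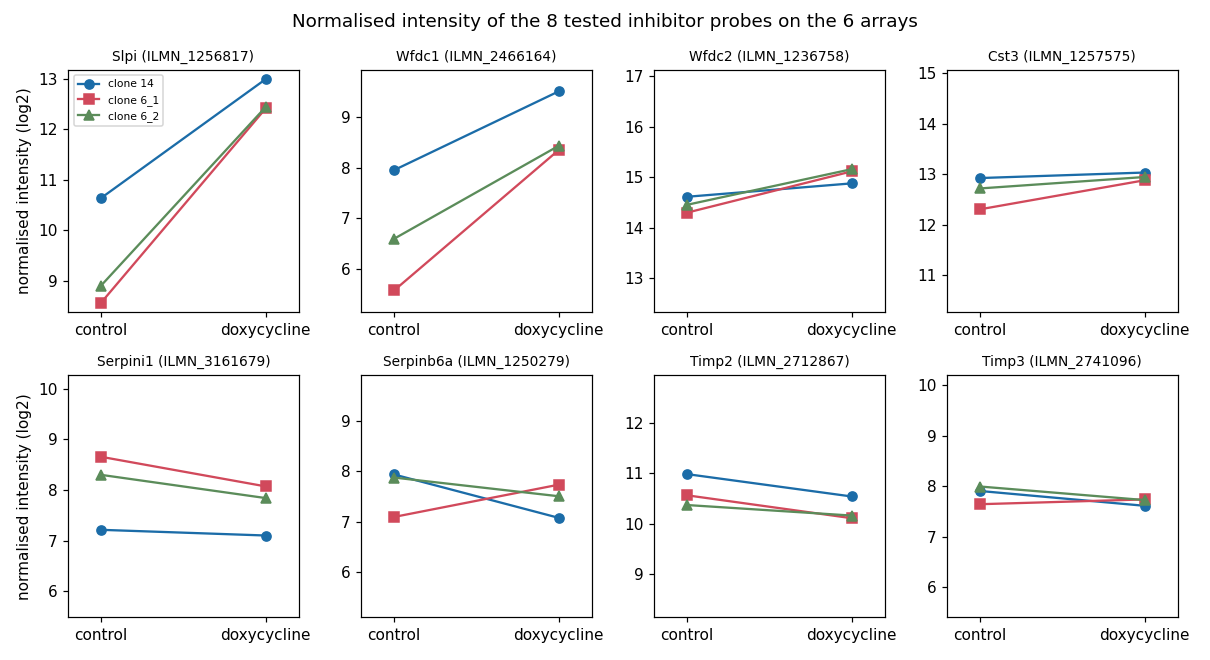
Normalised intensity (log2) of the tested probe of each of 8 inhibitor genes, with a line from the control array to the doxycycline array of each clone. All panels span the same log2 range, and Slpi and Wfdc1 show the steepest lines, while the lines of Serpinb6a run in opposite directions.

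Wfdc1, a secreted WAP protein also known as ps20, had the next largest difference. Its tested probe (ILMN_2466164) read 7.95, 5.57 and 6.59 in control medium for clones 14, 6_1 and 6_2, and 9.51, 8.35 and 8.43 with doxycycline. The groups did not overlap, although the control value of clone 14 lay closer to the doxycycline values of the other clones than to their control values. The differences were 1.56, 2.78 and 1.84, with a mean of 2.06 (SE 0.24), or 4.17-fold. The control array of clone 6_1 was not above background for this probe, while the other control arrays were. With that array set at its lowest value above background, 6.05, the difference was 2.30 in clone 6_1 and 1.90 on average, or 3.73-fold. The size of the difference hung on the background correction: it was 1.30 without it and 1.32 with the authors' processed values.

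The annotation gives Wfdc1 a pair of further probes, which were too dim to be tested and were above background on 0 of 3 control arrays. The probe ILMN_1246307 was above background on 2 of 3 doxycycline arrays, with scanner intensities for clones 14, 6_1 and 6_2 of 175, 141 and 107 on the control arrays, against 355, 194 and 176 under doxycycline. Its normalised level was 1.82-fold higher with doxycycline when the control arrays were set at a floor. The floor is the higher of the probe's own value and the lowest value above background on each control array. It was 6.00 on average (the measured control mean was 5.33), against a doxycycline mean of 6.86. Without clone 14 the ratio was 1.25-fold. The doxycycline value of clone 6_2 was itself not above background, so the ratio is not a strict bound. The probe ILMN_2545782 was above background on 1 of 3 doxycycline arrays, that of clone 14. Its ratio to the floor was 1.41-fold (6.49 against 6.00, with a measured control mean of 5.08). That ratio rested on clone 14, being 1.01-fold without it, and is likewise not a strict bound. All 3 probes read higher with doxycycline in each clone.

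**Figure D2:**
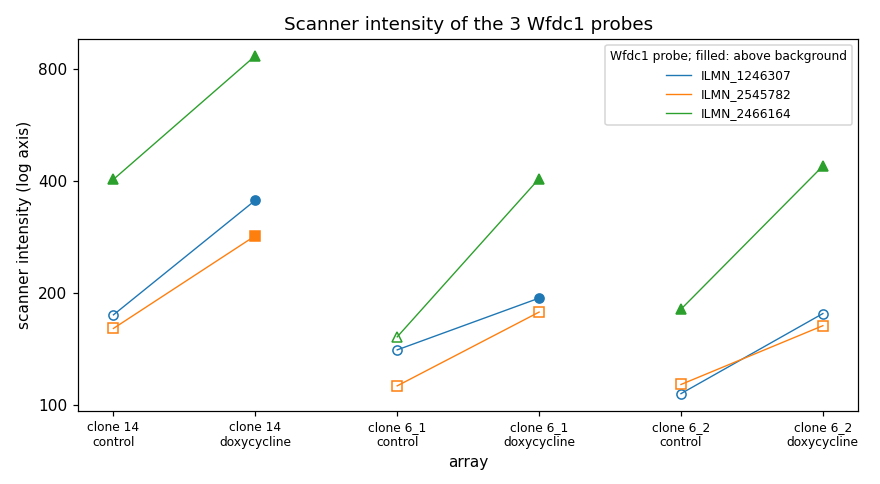
Scanner intensity (log axis) of the 3 Wfdc1 probes on the 6 arrays, with a line joining the arrays of a clone. Filled symbols are above background at a detection p under 0.01, and the brightest probe runs from 152 to 866.

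Wfdc2, known as HE4, a WAP protein secreted by many epithelia, was higher with doxycycline by less. Its probe (ILMN_1236758) read 14.61, 14.30 and 14.45 in control medium for clones 14, 6_1 and 6_2, and 14.88, 15.11 and 15.16 with doxycycline. The groups did not overlap, and the difference was 0.26, 0.82 and 0.70 within clones, with a mean of 0.60 (SE 0.18), or 1.51-fold. It did not pass the threshold of the fit across all probes. Its scanner intensity reached 23.9% to 40.8% of the array maximum on the control arrays and 50.9% to 53.1% on the doxycycline arrays. The part of any flattening at the bright end in this difference was not tested.

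Cst3, or cystatin C, the main secreted inhibitor of cysteine cathepsins, read 12.93, 12.31 and 12.72 in control medium for clones 14, 6_1 and 6_2, and 13.04, 12.89 and 12.95 with doxycycline (ILMN_1257575). The groups overlapped, since the control value of clone 14 lay among the doxycycline values. The mean difference was 0.30 (SE 0.18), made up of 0.11, 0.57 and 0.23.

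The serpins gave no common direction. Serpini1, or neuroserpin, an inhibitor of tissue plasminogen activator in nervous and endocrine tissue, read 7.21, 8.66 and 8.30 in control medium for clones 14, 6_1 and 6_2, and 7.10, 8.07 and 7.84 with doxycycline (ILMN_3161679). It was lower in each clone, by a mean difference of -0.39 (SE 0.18), with overlapping groups because clone 14 was low in both media. Serpinb6a is an intracellular serpin with close relatives in its gene cluster, and whether its signal includes theirs was not tested. Its tested probe (ILMN_1250279) read 7.94, 7.10 and 7.88 on the control arrays, against 7.08, 7.74 and 7.51 under doxycycline. Clone 14 differed by -0.86 and clone 6_2 by -0.37, whereas clone 6_1 differed by 0.64, with a mean of -0.20 (SE 0.26) that changed sign to 0.13 without clone 14. The other 3 Serpinb6a probes were above background on no array, at scanner intensities of 97.1 to 139.

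Among the TIMPs, Timp2, which both inhibits Mmp2 and takes part in its activation at the cell surface, read 10.98, 10.56 and 10.37 in control medium for clones 14, 6_1 and 6_2, and 10.54, 10.11 and 10.16 with doxycycline (ILMN_2712867). It was lower in each clone, by -0.44, -0.45 and -0.21, with a mean of -0.37 (SE 0.17) and overlapping groups. Timp3, which binds to the extracellular matrix, read 7.90, 7.64 and 7.99 on the control arrays, against 7.61, 7.74 and 7.72 under doxycycline, on its tested probe (ILMN_2741096), a mean difference of -0.16 (SE 0.17). Its other 2 probes were above background on no array, and neither were the 2 probes of Timp1, whose scanner intensities lay between 103 and 134.

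**Figure D3:**
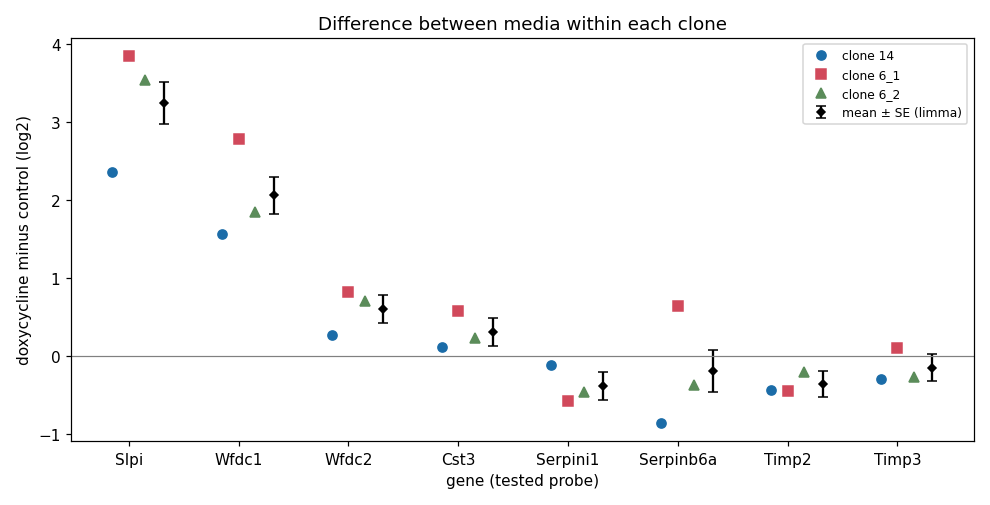
Difference between doxycycline and control medium (log2) for the tested probe of each gene, with 1 symbol per clone and the mean with its standard error from limma in black. Slpi, Wfdc1, Wfdc2 and Cst3 lie above 0 in all 3 clones, and Serpini1 and Timp2 lie below.

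In the fit across all 16902 probes (limma with clone as a block, adjusted p under 0.05), 2 of the 8 tested inhibitor probes, those of Slpi and Wfdc1, were called higher and 0 lower, against 0.189% of all tested probes called higher and 0.124% called lower. At an unadjusted p under 0.05, 3 were higher and 0 lower, against 11.6% and 10.6% of all tested probes. These genes were singled out on this comparison, so the counts show only what the choice put in. With no clone block Wfdc1 was no longer called, and with every probe on the array kept neither was. The differences of 3.24 and 2.06 were the same in both of these fits by construction, as neither change alters the mean of a probe. With the looser filter of a detection p under 0.05 the dim Wfdc1 probes entered the fit and all 3 were called. The dim probes passed that filter through the doxycycline arrays, since of the control arrays only that of clone 14 met it. Their calls thus add no support. Over the 8 tested probes, 4 differences were positive, as were 50.0% of those of all tested genes. The median was 0.07, against -0.01 for all tested probes. In 3 of the 8 the groups did not overlap, as in 24.5% of all tested probes.

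The clones were compared with medium as a term, a contrast that does not use the difference between media. Clone 14 had the highest Slpi and Wfdc1 and the lowest Serpini1 in both media. Slpi differed by -1.33 (SE 0.33) between clones 6_1 and 14 and by -1.14 (SE 0.33) between clones 6_2 and 14. Wfdc1 differed by -1.77 (SE 0.29) and -1.22 (SE 0.29) in the same order, and Serpini1 by 1.21 (SE 0.22) and 0.91 (SE 0.22). Clones 6_1 and 6_2 lay closer, with differences of 0.18 (SE 0.33) for Slpi, 0.55 (SE 0.29) for Wfdc1 and -0.29 (SE 0.22) for Serpini1.

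None of the 8 tested probes passed the test between clones (limma's moderated F, adjusted over all probes), which called 0.118% of all tested probes. Adjusted p was 0.249 for Slpi, 0.133 for Wfdc1 and 0.146 for Serpini1, and these were the 3 inhibitor probes with an unadjusted p under 0.05, which 11.4% of all tested probes had. For the other 5 the adjusted p lay between 0.509 and 0.970. The call depended on which clones entered: without clone 6_1, and likewise without clone 6_2, Slpi, Wfdc1 and Serpini1 passed, in fits that called 1032 and 308 of all probes. Without clone 14, 0 of the 8 passed and 2 of all probes did. With median scaling Wfdc1 passed (adjusted p = 0.020). With 1 culture per clone and medium, these p-values measure only the spread between these cultures.

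**Figure D4:**
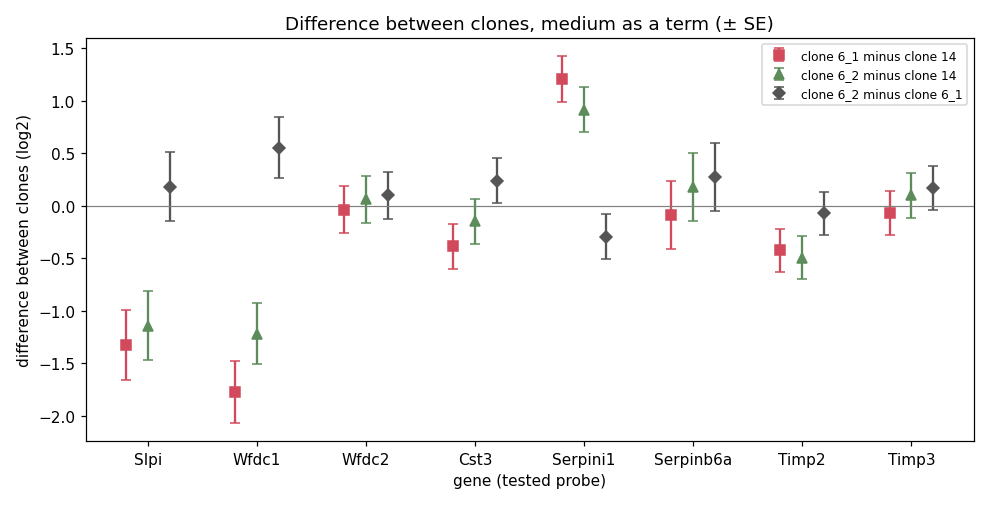
Pairwise differences between clones (log2, with standard errors from limma) for the tested probe of each gene. Slpi and Wfdc1 were lower and Serpini1 higher in clones 6_1 and 6_2 than in clone 14, while clones 6_1 and 6_2 lay closer to each other.

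Other genes of the same kinds were listed by family with earlier results of these arrays known. Of 142 other inhibitors listed, 124 had a probe and 18 had a tested one. No tested probe of the 22 was called in either direction (limma), and at an unadjusted p under 0.05, 4 were higher and 3 lower, against 11.6% and 10.6% of all tested probes. The 3 lower were all probes of App, while the 4 higher were those of Wfdc3, Wfdc12, Spint2 and Fetub. Of the 18 genes, 13 read higher, with a median difference of 0.14, against -0.00 for all 9196 tested genes, of which 50.0% read higher. The WAP genes Wfdc3 and Wfdc12 read 0.80 (SE 0.20) and 0.61 (SE 0.18) higher, each in all 3 clones, with adjusted p of 0.0985 and 0.125. Wfdc3 was above background on 2 of 3 control arrays. Spint2, a Kunitz inhibitor of membrane serine proteases such as matriptase, read 0.62 (SE 0.19, adjusted p = 0.131). App, whose longer forms carry a Kunitz domain, read lower on all 4 of its tested probes, by between -0.65 and -0.48, with adjusted p of 0.111 to 0.237. The probes used here do not show which App forms were measured.

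Among the proteases of the families that these inhibitors act on, 20 of 88 listed genes had a tested probe. The membrane serine protease Tmprss2 fell by 1.40 (SE 0.18, limma, adjusted p = 0.0217), in all 3 clones, and was the only called probe of 30. At an unadjusted p under 0.05, 3 of the 30 were higher and 4 lower, close to the 11.6% and 10.6% of all tested probes. Of the 20 genes, 6 read higher, and the median difference was -0.15. Prss8, or prostasin, read 0.68 (SE 0.17, adjusted p = 0.0985) on a probe above background on 1 of 3 control and 2 of 3 doxycycline arrays, and 0.06 on its other probe, which was detected on all arrays. The lysosomal cathepsin Ctsl, a target of cystatins, read -0.55 (SE 0.17, adjusted p = 0.131). Adam10, a membrane metalloprotease, read -0.62 (SE 0.21) on 1 probe and -0.25 (SE 0.21) on the other.

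Binding partners of the inhibitors formed a short list of 6 genes with 10 tested probes. Plscr4, one of the scramblases that human SLPI is known to bind, fell by 1.28 (SE 0.17, limma, adjusted p = 0.0288), by 1.19, 1.51 and 1.15 in clones 14, 6_1 and 6_2. Its relative Plscr1 read -0.35 (SE 0.17, adjusted p = 0.262) on the probe of smallest p. Cd63, a membrane protein that binds Timp1, read 0.34 to 0.59 on its 3 probes, and Anxa2 read 0.43 and 0.10 on its 2 probes, none of them called. The falls of Tmprss2 and Plscr4 were known before these lists were drawn up and add no independent support.

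**Figure D5:**
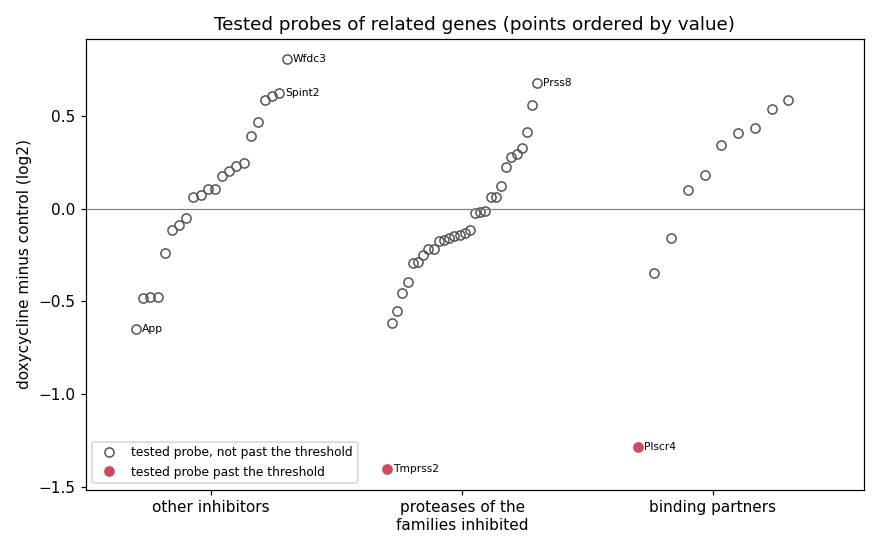
Difference between doxycycline and control medium (log2) for every tested probe of the other inhibitors, the proteases of the families they inhibit and the binding partners, ordered by value within each list. The filled points, Tmprss2 and Plscr4, passed the threshold of the fit across all probes, and both lie below 0.

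The genes whose values ran most like those of Slpi over the 6 arrays were Selenoh, D8Ertd738e, Cd3eap, Mrpl38 and Mrpl33, with Pearson r of 0.992 to 0.995. Their differences between media were smaller, from 0.49 for Cd3eap to 0.88 for Selenoh, and 0 of the 5 were called (limma, adjusted p of 0.0861 to 0.157). For Wfdc1 they were Cope, Nat8f1, Psmb8, Ndufaf1 and Cklf, with r of 0.994 to 0.998 and differences from 0.29 for Ndufaf1 to 1.19 for Cklf. Slpi and Wfdc1 themselves correlated at r = 0.953. All of these values share the same 6 arrays and the same order of media, so they describe likeness in this set only.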

How the data were processed

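Illumina MouseWG-6 v2.0 bead arrays were hybridised with total RNA. The deposited table holds a scanner intensity per probe and array and a detection p-value beside it, per the file headers. Per the submitters' processing notes, the software was BeadStudio and GenomeStudio. A second deposited table gives processed intensity on a linear scale (array medians of 134.1 to 134.2, same rank order as the scanner values), whose normalisation the sources used here do not state. Columns of other samples numbered 0.

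Scanner values were normalised with neqc (offset 16, quantile, log2) in limma 3.58.1 under R 4.3.3, and all tested probes were fitted with lmFit and eBayes with medium and clone as terms (2 residual and 6.95 prior degrees of freedom), two-sided, with Benjamini-Hochberg adjustment. The offset shrinks differences of dim probes. The fit was tested on simulated data. Symbols came from the platform annotation (34885 probes with 1 symbol, 18 with several, 10378 with none). Clone is the block because the labels place each clone in both media. Deviations from the group means correlated at 0.538, -0.0211 and 0.139 within clones 14, 6_1 and 6_2. Across clones, the control array of 6_1 correlated at 0.426 with the doxycycline array of 6_2. The control array of 6_2 correlated at 0.229 with the doxycycline array of 6_1. The pairing of clones 6_1 and 6_2, and each difference within them, therefore rests on the labels alone. An exchange of their labels was not tested. No slide or scan information was used.

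Members and lists were chosen with earlier results of these data known. Named are all member probes, list genes past the threshold, the 4 of smallest p per list and the 5 genes most like Slpi and Wfdc1. For a list's median the brightest tested probe stood for a gene. Alternatives were the block, scaling, background, authors' values, filter and each clone left out.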

Additional observations from a re-analysis of the deposited data

Results flagged for a closer look

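Serpinb6a moved in opposite directions between clones, with a doxycycline minus control difference of -0.86 in clone 14 and -0.37 in clone 6_2 against 0.64 in clone 6_1. Timp3 did so too, at -0.29 in clone 14 and -0.27 in clone 6_2 against 0.0947 in clone 6_1. With 1 culture per clone and medium, the difference between the clones was not tested in either gene.

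The dim Wfdc1 probes left out of the fit were above background on doxycycline arrays and on no control array. The mean differences of their measured values were 1.53 (ILMN_1246307) and 1.41 (ILMN_2545782) on the log2 scale, with no floor set for the control arrays.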

How the results depend on the processing

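Over 10 alternatives all 8 inhibitor differences kept their sign, except Serpinb6a without clone 14 (0.13). Dropping the clone block or changing the filter cannot alter a mean difference here, so for the sign only the other alternatives count. Slpi ran from 2.94 to 3.69, Wfdc1 from 1.30 to 2.31, Wfdc2 from 0.48 to 0.81, Cst3 from 0.17 to 0.40, Serpini1 from -0.52 to -0.28, Timp2 from -0.45 to -0.33, Timp3 from -0.28 to -0.09 and Serpinb6a from -0.61 to 0.13. Without clone 6_1 Cst3 was 0.17, Timp3 -0.28 and Serpinb6a -0.61. Wfdc1 was 1.90 with the control array of clone 6_1 at its floor, an alternative chosen after seeing the data. With no replicate block 33 probes were called between media in place of 53, and 1 inhibitor probe in place of 2. Median scaling called 165 between media, 75 higher and 90 lower in place of 32 and 21, and between clones 89 in place of 20, with 1 inhibitor probe. With no filter 1 probe was called between media and 6 between clones, and 0 inhibitor and 0 protease probes passed, with 45281 probes tested in place of 16902. A detection p under 0.05 called 4 inhibitor probes between media, and 32 probes between clones. Leaving out 1 clone gave 78 to 717 probes between media, 2 to 1032 between clones, 0 to 3 inhibitor probes between clones, and 0 to 1 other inhibitor probes. Without clone 14 or 6_2 the prior degrees of freedom estimated by limma were infinite. For the remaining changes the cause was not tested. Signal over background limits the dim Wfdc1 probes, and Serpinb6a, Timp1 and Timp3, most of whose probes were above background on no array.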

Other observations

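Genes next to Slpi were looked at after the values of Slpi and Wfdc2 were seen. In the gene order of GRCm38.p6, 7 protein-coding genes lie between Slpi and Wfdc2 on chromosome 2, and 4 of them had tested probes. All 6 probes of these 4 genes read higher with doxycycline, by 0.10 to 0.68, where 50.0% of all tested genes read higher. Of the 6 probes 0 were called (limma) and 1 had an unadjusted p under 0.05, that of the Golgi protein gene Sys1. Of all tested probes, 11.6% were higher and 10.6% lower at that p. On the other side of Slpi lie the seminal vesicle genes Svs2 to Svs6 and the WAP gene Wfdc15b, and 0 of their probes passed the filter. Around Wfdc1 on chromosome 8, 11 of the 16 nearest protein-coding genes had a tested probe, and 0 of these were called or had an unadjusted p under 0.05. Their differences, on the brightest tested probe, had both signs, from -0.33 for Mbtps1 to 0.36 for Cotl1.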
